A study of Mus musculus with 18 samples.

Results

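The collagen genes of the mouse were followed across both axial regions and both genotypes of a study on Meis transcription factors. Members were all protein-coding genes whose symbol reads Col, a number, the letter a and a number. There were 44 of them among 53465 Ensembl identifiers in the table, of which 21942 were protein-coding in the annotation used. They comprise 11 fibrillar genes, the 6 genes of type IV collagen (basement membrane), and 27 others. Of the others, 6 encode type VI beaded filament chains, 9 fibril-associated collagens, 3 network-forming collagens, 1 the anchoring fibril collagen, 2 multiplexins and 4 transmembrane collagens, and 2 fall outside these classes.

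RNA was sequenced from 9 embryos at embryonic day 9 with 20 to 24 somites. Per the labels, 5 embryos were controls, with no further genotype given, and 4 were DKO, in which Meis1 and Meis2 had been deleted conditionally by Delta1Cre. Delta1 (Dll1) drives this Cre, so recombination is limited to cells that express or descend from cells expressing it, and the other cells of a piece keep both genes. Each embryo gave a posterior library, made from the axial bud and the 10 to 12 newest somites, and an anterior library from the remaining somite-bearing axis. Each region thus has 5 control and 4 DKO libraries, and no other treatment is labelled.

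Collagens are triple helices of α chains rich in glycine, proline and hydroxyproline. Fibrillar chains are cleaved at their ends outside the cell and assemble into fibrils, whereas type IV chains form the sheet-like scaffold of basement membranes around the neural tube, notochord, somites and vessels. In the early axis, Col2a1 and the type IX and XI chains are known from the notochord and from sclerotome on its way to cartilage, and the type I, III and V chains from mesenchyme.

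Library totals ranged from 12.7 to 38.2 megacounts (M), and levels are given as CPM, counts per megacount of the library, after scaling by the trimmed mean of M values. The floor of 3 counts lies at 0.079 to 0.233 CPM depending on the library, and covers counting error only. Meis1 was at 113 to 135 CPM in anterior control and 89.7 to 111 in anterior DKO libraries, and Meis2 at 177 to 203 and 130 to 157. In the posterior pieces Meis1 was at 59.6 to 99.8 and 46.7 to 71.9 CPM, and Meis2 at 117 to 162 and 91.1 to 116. Gene counts do not show whether the deleted exons are present. The region labels were matched by Hoxc10, at 0 to 0.173 CPM in anterior and 120 to 195 in posterior libraries. Both libraries of control 1, labelled female, had Y-linked transcripts (151 and 162 CPM) and Xist at 0.34 CPM or less. Sex entered no comparison.

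Of the 44 collagen genes, 36 passed the filter on low counts in at least 1 comparison. The 8 that passed in none were Col4a3, Col4a4, Col6a4, Col6a5, Col6a6, Col10a1, Col19a1 and Col28a1. The highest level of any of them in a single library was 0.514 CPM, for Col6a6 in anterior DKO 2. All 44 genes together took 0.158% to 0.280% of the counts of a library. The fibrillar genes took 0.0512% to 0.137%, the type IV genes 0.0449% to 0.0681%, and the other genes 0.055% to 0.0778%.

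Per length of gene model (CPM per kilobase of merged exons), Col18a1 had the highest level of the 44 genes in each group. It encodes the basement membrane proteoglycan from which endostatin is cleaved. Its group means were 58.5 CPM per kb in anterior control, 63.1 in anterior DKO, 59.3 in posterior control and 65.7 in posterior DKO. Col4a1, a chain of the ubiquitous type IV heterotrimer, followed in the anterior controls with 48.1 CPM per kb, and its partner Col4a2 had 29.8. Among fibrillar genes, Col3a1 was highest in the anterior controls at 37.9 CPM per kb, followed by Col2a1 (25.9), Col1a2 (15.3), Col5a1 (12.9) and Col1a1 (12.7). In the posterior controls the fibrillar order changed, with Col2a1 at 23.7 and Col3a1 at 14.2 CPM per kb. Outside the fibrillar and type IV classes, Col26a1 was second to Col18a1, at 16 CPM per kb in the anterior controls.

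**Figure D1:**
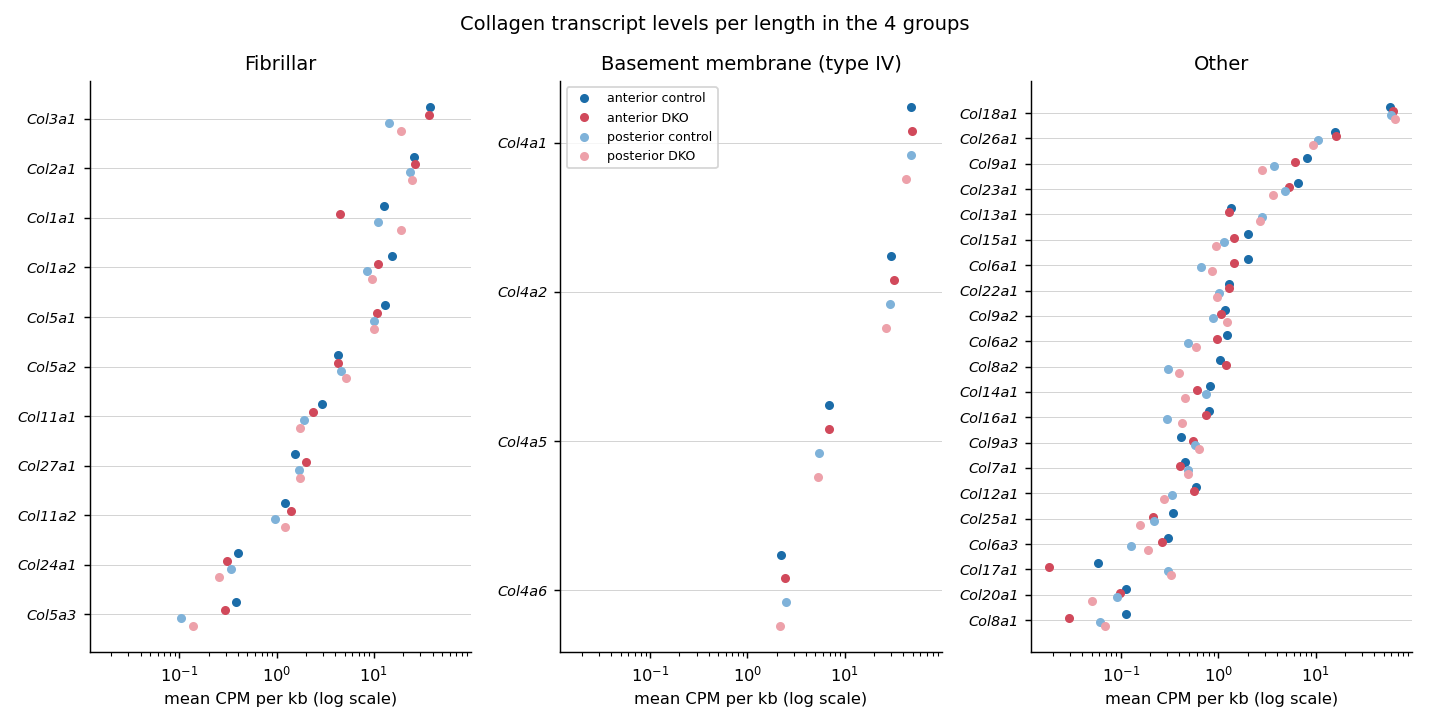
Mean level in CPM per kilobase of merged exons (log axis) of the collagen genes tested in at least 1 comparison, by class, 1 point for each of the 4 groups. Col18a1, Col4a1 and Col3a1 lead their classes in the anterior controls (58.5, 48.1 and 37.9 CPM per kb), and the posterior points of Col3a1 lie left of its anterior points.

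The type IV genes lie in head-to-head pairs. Col4a1 (chromosome 8, 11198423 to 11312826, minus strand) and Col4a2 (chromosome 8, 11312805 to 11449287, plus strand) start within each other's first exons in the GRCm38 annotation, and the models overlap by 22 bases. The start sites of Col4a3 and Col4a4 are 72 bases apart, and those of Col4a5 and Col4a6 are 1309 bases apart. The overlap is shown because both start sites of the pair with the highest type IV levels bound it (GRCm38, chr8:11312805-11312826, plus strand), in lower case throughout.
Col4a1 and Col4a2 overlap: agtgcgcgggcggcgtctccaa

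Col4a1 and Col4a2 kept nearly 1 proportion in all 18 libraries. Col4a1 ranged from 272 to 403 CPM and Col4a2 from 152 to 227 CPM, and the ratio of their CPM stayed between 1.69 and 1.94. The ratio of Col4a5 to Col4a6, chains with a more restricted distribution, ranged more widely, from 1.42 to 3.02. For the type I chains, which assemble together in 1 trimer, the ratio of Col1a1 to Col1a2 ranged from 0.188 to 1.74. These ratios are of counts, not per length, and describe spread rather than stoichiometry.

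The first comparison asked whether collagen transcripts differed between DKO and control embryos in the anterior piece. None of the 35 collagen genes tested passed the threshold (adjusted p below 0.05 over all genes by edgeR's quasi-likelihood test), against a background of 0.0394% of 15238 genes. Lower values in DKO predominated below that threshold. At an unadjusted p below 0.05, 11 of the 35 were lower (31.4%, against 6.61% of all genes) and 1 was higher (6.41% of all genes were). In 8 genes every DKO library lay below every control library (22.9%, against 2.61% of all genes), and in 1, Col11a2, every DKO library lay above (2.47% of all genes did). The median log2 fold change was −0.26 over the 11 fibrillar genes, 0.07 over the 4 type IV genes tested, −0.17 over the 20 other genes tested, and 0 over all genes. In bulk pieces, fewer cells of a type and less RNA per cell cannot be told apart.

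Among the fibrillar genes, Col1a1 had the largest difference. Its anterior levels were 81.8, 106, 136, 43.2 and 50.6 CPM in controls 1 to 5 and 26.2, 35.0, 24.7 and 31.4 CPM in DKO 1 to 4. The controls spread over a wide range, and even the lowest lay above all DKO libraries. The log2 fold change was −1.51 (SE 0.303, 95% interval −2.18 to −0.84), with an adjusted p of 0.0881. Col1a2, which encodes the partner chain, had 186, 202, 230, 157 and 173 CPM in controls against 139, 142, 127 and 143 CPM in DKO embryos. Its groups did not overlap, and its log2 fold change was −0.46 (SE 0.0960, adjusted p = 0.0976). The CPM ratio of Col1a1 to Col1a2 was 0.275 to 0.591 in the anterior controls and 0.188 to 0.246 in the anterior DKO libraries, so the ranges were separate.

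Col11a1, a minor chain that helps set the width of cartilage fibrils, had 36.1, 31.2, 42.9, 42.4 and 35.1 CPM in controls and 30.8, 30.9, 29.4 and 30.2 CPM in DKO libraries. These groups also did not overlap, although the gap was narrow (log2 fold change −0.31, SE 0.0891, adjusted p = 0.202). Col5a1, a chain needed to start type I fibrils, was lower in each DKO library as well, at 85.7 to 96.4 CPM against 97.4 to 132 in controls (−0.26, SE 0.0821, adjusted p = 0.232). Not all fibrillar genes had lower values. Col2a1, the main cartilage collagen, had 210 to 279 CPM in controls and 234 to 254 in DKO libraries, with a 95% interval of the log2 fold change of −0.14 to 0.21. Col3a1 had 335 to 437 and 332 to 393 CPM, with an interval of −0.23 to 0.11. Col27a1, another cartilage-associated fibrillar gene, was the 1 gene with a higher value at an unadjusted p below 0.05 (17.7 to 24.1 against 20.9 to 28.7 CPM, log2 fold change 0.38, SE 0.12, adjusted p = 0.228). Col24a1, a further fibrillar gene, named after its values were seen, had 2.33 to 3.45 and 2.19 to 2.46 CPM, with overlapping groups (−0.38, SE 0.158, adjusted p = 0.341).

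Col9a1 had the smallest p of all collagen genes in the anterior piece. It encodes a chain of the fibril-associated collagen on the surface of type II fibrils. Controls had 43.1, 40.3, 44.4, 42.5 and 37.5 CPM, and DKO libraries 27.7, 33.2, 33.1 and 30.0 CPM. Every DKO library lay below every control. The log2 fold change was −0.43 (SE 0.0701, 95% interval −0.58 to −0.27, adjusted p = 0.0522). Of the other type IX chains, Col9a2 had 2.98 to 4.36 CPM in controls and 2.59 to 4.32 in DKO libraries, and Col9a3 1.06 to 2.20 and 1.64 to 2.41 CPM. Reads of Col9a3 are uncertain because its exons overlap those of Tcfl5 on the other strand by 234 bp and the use of strand in counting is not given in the sources used here. Col5a1, Col15a1 and Col22a1 likewise overlap non-coding genes on the other strand, by 14 to 113 bp each, and Col4a2 overlaps Gm15419 by 43 bp. Col3a1 shares 141 bp with Gm47302 on its own strand.

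Col9a1 has alternative start sites, and the table does not separate its transcripts. The 250 bases before each RefSeq start (GRCm38, plus strand, chr1:24177360-24177609 and chr1:24194953-24195202) are shown because this gene lay closest to the threshold in the DKO comparisons. The capitals mark a CCAAT box that begins 18 bases before the downstream start, and neither stretch holds the MEIS core letters TGACAG or their reverse complement.
Col9a1 upstream start: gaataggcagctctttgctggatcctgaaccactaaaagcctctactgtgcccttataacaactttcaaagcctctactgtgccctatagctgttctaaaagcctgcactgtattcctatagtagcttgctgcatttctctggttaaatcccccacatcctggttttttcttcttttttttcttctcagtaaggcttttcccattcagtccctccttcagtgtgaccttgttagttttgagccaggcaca
Col9a1 downstream start: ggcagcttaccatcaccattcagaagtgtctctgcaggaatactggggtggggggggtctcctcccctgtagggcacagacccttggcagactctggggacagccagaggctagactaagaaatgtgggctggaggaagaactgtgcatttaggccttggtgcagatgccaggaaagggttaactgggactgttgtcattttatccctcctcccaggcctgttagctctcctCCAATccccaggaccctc

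Lower values at an unadjusted p below 0.05 were also found outside these classes. Col23a1 (transmembrane) had 36.8, 33.9, 42.8, 35.4 and 39.3 CPM in controls and 29.8, 31.9, 30.9 and 29.3 CPM in DKO libraries (−0.30, SE 0.0703, adjusted p = 0.127). Col15a1, a basement membrane zone proteoglycan related to Col18a1, had 11.9, 13, 15.3, 12.1 and 12.6 CPM against 8.17, 8.23, 11 and 9.98 CPM (−0.48, SE 0.116, adjusted p = 0.143). In both genes each DKO library was below each control. Col8a1, a network-forming chain of vessel walls, was lower in DKO libraries too (0.0577 to 0.36 against 0.699 to 1.24 CPM, −1.90, SE 0.387, adjusted p = 0.0915). It has a mean of 11.8 counts, and it is named after its values were seen. The multiplexin Col18a1 had 364 to 473 CPM in controls and 380 to 511 in DKO libraries.

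**Figure D2:**
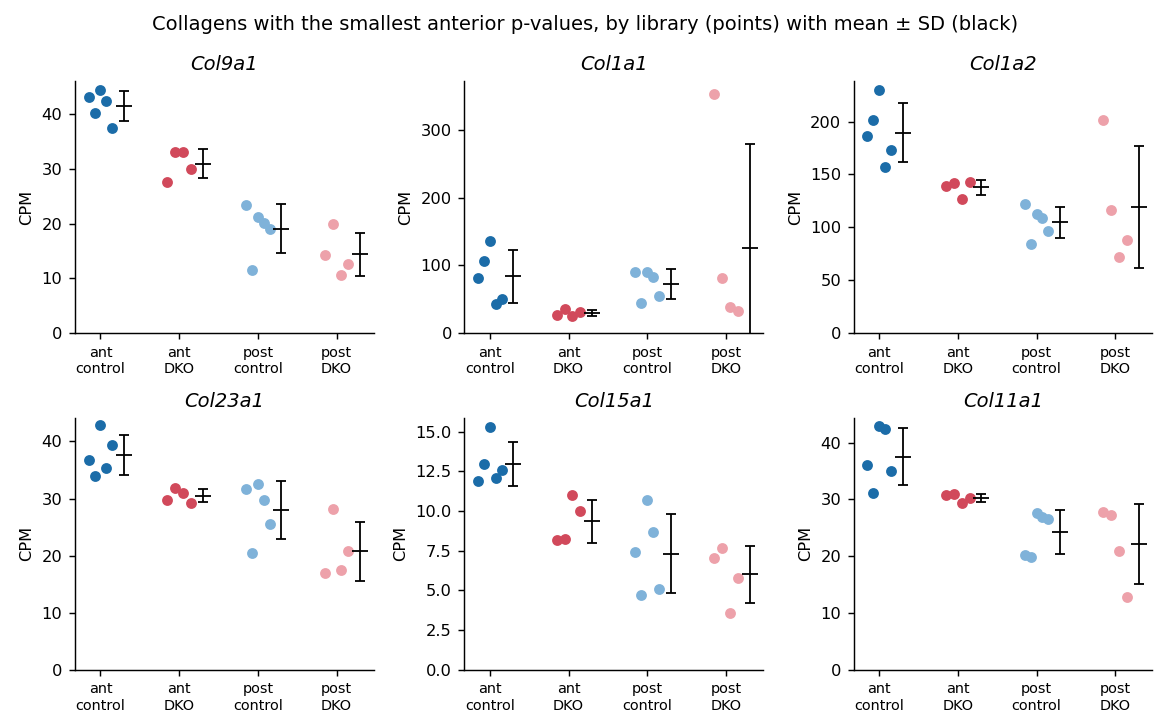
Level in CPM by library (points) in the 4 groups for the 6 collagen genes with the smallest anterior p and a mean of at least 50 counts, with mean ± SD in black, and the lower end of the SD bar of Col1a1 in posterior DKO cut at 0. Anterior DKO points lie below all anterior control points in each panel, and 1 posterior DKO library of Col1a1 stands at 353 CPM.

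For each type IV gene tested the anterior interval included 0. The 95% interval of the log2 fold change was −0.10 to 0.16 for Col4a1, −0.05 to 0.27 for Col4a2, −0.10 to 0.10 for Col4a5 and −0.11 to 0.37 for Col4a6. Among the type VI genes, whose microfilaments lie around cells, the value was −0.45 for Col6a1 (SE 0.166, adjusted p = 0.293) and −0.37 for Col6a2 (SE 0.146, adjusted p = 0.327), with overlapping groups.

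No single tissue marker passed the threshold in the anterior comparison, but the summed levels of several lists had separate ranges by genotype. The summed level of the 6 lateral plate and coelomic mesoderm markers was 64.1 to 119 CPM in controls and 33.9 to 53.9 in DKO libraries, and that of the 8 sclerotome markers 334 to 405 and 252 to 310. The 6 neural tube markers summed to 388 to 501 CPM in controls and 508 to 560 in DKO libraries, and the 6 notochord markers to 47.4 to 56.9 and 60.9 to 71. The ranges of the other 7 lists (dermomyotome and myotome, endothelium, primitive erythroid cells, neural crest, heart, surface ectoderm and gut endoderm) overlapped, and no marker was at 0 in all libraries of an anterior group. Single markers within those 7 lists nevertheless went 1 way. All 5 neural crest markers had higher values in DKO libraries (median log2 fold change 0.38, 4 at an unadjusted p below 0.05, 2 with separate groups), as did all 6 of surface ectoderm (median 0.2, 1 at that p). All 6 primitive erythroid markers (median −0.72, 0 at that p) and all 6 of endothelium (median −0.15, 1 at that p) had lower values. Of the 4 heart markers tested 3 were lower (median −0.80, 2 at that p), and the members of the gut endoderm and the dermomyotome and myotome lists were mixed in sign. The part of these tissues in the collagen values was not tested.

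The number of collagen genes past the threshold depended on the method. DESeq2 called 6 of the 35, all lower (Col1a1, Col1a2, Col8a1, Col9a1, Col15a1 and Col23a1), while it called 1.94% of all genes. With no filter on low counts edgeR called Col1a1, Col1a2 and Col9a1 (0.274% of all genes were called). With somite number as a covariate it called Col9a1 (0.551% of all genes), and without DKO 2 it called Col9a1 and Col25a1 (0.369%).

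**Figure D3:**
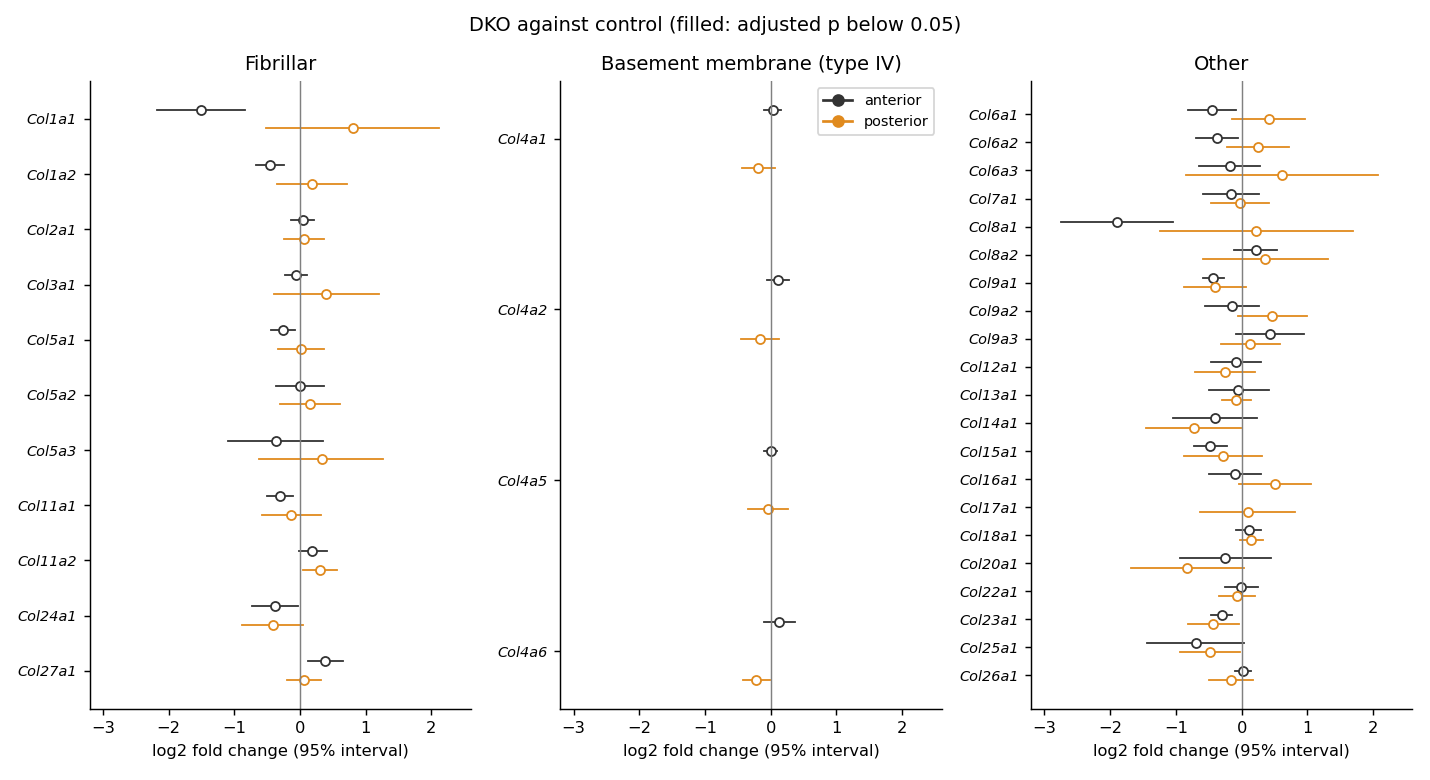
Log2 fold change of DKO against control with its 95% interval for each tested collagen gene, in the anterior (dark) and posterior (orange) piece, by class, with filled points for an adjusted p below 0.05. No point is filled, and the anterior values of Col1a1 (−1.51) and Col8a1 (−1.90) lie farthest from 0.

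In the posterior piece, none of the 36 collagen genes tested passed the threshold (background 0.0126% of 15936 genes). At an unadjusted p below 0.05 there were 5 (13.9%, against 11% of all genes), and in no collagen gene were the groups separate, as they were in 4.27% of all genes. The count at that unadjusted p was 1 without control 1, 3 or 4 (9.33%, 8.03% and 10.4% of all genes) and 2 without control 5, DKO 1 or DKO 4 (8.27%, 9.24% and 7.58%), and it was 9 in 1 fit of all 18 libraries (16.1% of all genes). The median log2 fold change was 0.15 over the fibrillar, −0.17 over the type IV and −0.02 over the other genes, beside 0.01 over all genes. Over 16 alternatives the fibrillar median ranged from −0.08 to 0.3 and that of the other genes from −0.14 to 0.11, so neither kept its sign. The smallest p belonged to Col11a2, a type XI chain, with 6.24, 8.11, 6.25, 6.19 and 6.61 CPM in controls and 7.45, 8.79, 8.75 and 8.19 CPM in DKO libraries (0.31, SE 0.119, adjusted p = 0.431). Only control 2 reached the range of the DKO libraries.

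Lower posterior values were found for Col23a1, with 31.7, 20.4, 32.6, 29.7 and 25.6 CPM in controls and 16.9, 28.1, 17.4 and 20.8 in DKO libraries (−0.43, SE 0.175, adjusted p = 0.446). Controls 2 and 5 and DKO 2 and 4 lay inside the range of the opposite group. Col14a1, a fibril-associated collagen, had 5.98, 2.06, 7.31, 5.91 and 5.10 CPM against 2.42, 4.85, 2.61 and 2.76 (−0.73, SE 0.331, adjusted p = 0.452). The remaining named genes were Col25a1, a transmembrane collagen (−0.48, SE 0.209, adjusted p = 0.451), Col4a6 (−0.22, SE 0.0951, adjusted p = 0.451) and Col16a1, a fibril-associated collagen (0.51, SE 0.252, adjusted p = 0.476). For each of them the groups overlapped. Col16a1 had 1.63, 2.10, 2.57, 1.80 and 1.96 CPM in controls and 4.46, 2.37, 2.56 and 2 in DKO libraries, and without DKO 1 its log2 fold change was 0.20.

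No marker passed the threshold in the posterior comparison. Of the 11 marker lists, surface ectoderm had separate ranges of summed level in the posterior pieces. They were 181 to 252 CPM in controls and 261 to 324 in DKO libraries. Of these 6 markers 5 had higher values (median 0.21, 3 at an unadjusted p below 0.05). Krt8 had means of 83.6 and 130 CPM and Krt18 of 55.3 and 77.6, whereas Trp63 had 12.2 and 13.3 and Grhl2 10.8 and 10.3. The ranges of the other 10 lists overlapped, among them sclerotome (399 to 504 and 206 to 404 CPM) and primitive erythroid cells. All 8 sclerotome markers had lower values in posterior DKO libraries (median −0.48), 4 of them at an unadjusted p below 0.05 and 2 with separate groups, and their summed ranges shared only 399 to 404 CPM. All 6 endothelium markers had lower values too (median −0.22, 0 at that p). Higher values were found for all 6 primitive erythroid markers (median 0.52, 3 at that p), all 6 of neural tube (median 0.27, 2 at that p) and all 6 of notochord (median 0.22, 1 at that p). The other lists were mixed in sign, with medians from −0.37 (heart) to 0.32 (gut endoderm). Their part in the posterior collagen values was not tested.

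Col1a1 in the posterior piece rested on 1 library. Its levels were 89.8, 44.0, 90.0, 83.1 and 54.0 CPM in controls and 353, 81.2, 38.2 and 32.4 CPM in DKO 1 to 4. DKO 1 stood far above all other libraries of either region, and the other 3 lay within or below the controls. The log2 fold change of 0.80 (SE 0.596, adjusted p = 0.586) became −0.51 without DKO 1. Posterior DKO 1 was also the highest of the posterior libraries for Col1a2 (202 CPM, the others 72.2 to 122) and for Lum, a proteoglycan of collagen fibrils (35.7 CPM, the others 0.64 to 5.75). Whether other tissue was present in that piece was not tested.

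The interaction of region and genotype gave no call among 36 collagen genes (background 0% of 16428). There were 7 at an unadjusted p below 0.05 (19.4%, against 3.45% of all genes), each with an adjusted p of 0.999. For 6 of these the DKO effect was higher in the posterior than in the anterior piece. They were Col1a1 (2.32, SE 0.756), Col8a1 (2.12, SE 0.848), Col17a1 (1.76, SE 0.831), Col6a1 (0.86, SE 0.312), Col1a2 (0.65, SE 0.293) and Col6a2 (0.62, SE 0.268). Col17a1 failed the filter in the anterior comparison and passed it here through its posterior libraries. It had 0 to 10 counts in anterior control and 1 to 5 in anterior DKO libraries, so its value rests on counts near the floor. Col8a1 had 1 to 10 counts in anterior DKO libraries. For Col4a6 the DKO effect was lower in the posterior piece (−0.36, SE 0.144). Among the markers, the 6 of primitive erythroid cells all had positive interaction values, 5 of them at an unadjusted p below 0.05 (median 1.24). Their summed level was 1030 to 5060 CPM in anterior control, 1310 to 2200 in anterior DKO, 1470 to 2440 in posterior control and 1770 to 3730 in posterior DKO libraries. All 5 neural crest markers had negative values (median −0.34, 1 at that p). Of the 6 lateral plate and coelomic mesoderm markers 5 had positive values (median 0.57, 1 at that p). Of the 8 sclerotome markers 6 had negative values, and 2 were at that p (median −0.13). No marker of the remaining lists was at that p, with medians from −0.17 (heart) to 0.1 (surface ectoderm). The part of all these tissues in the collagen values was not tested. Without DKO 1, 2 collagen genes were below that p (2.77% of all genes) and the value of Col1a1 was 0.95, and without control 3 or DKO 4 there were 4 (3.05% and 2.82% of all genes). Without DKO 2 there were 9 (6.78% of all genes), 5 higher and 4 lower. Without control 2 there were 7 (4.25% of all genes), 4 higher and 3 lower.

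The next comparison set the posterior against the anterior piece of the control embryos. It uses the same anterior control libraries as the anterior DKO comparison. Here 19 of 36 collagen genes passed the threshold (52.8%, against 25.4% of 15294 genes). Of these, 17 were lower in the posterior piece (47.2%, against 13.3% of all genes) and 2 higher (12.1% of all genes were). The fibrillar class had 6 lower of 11, type IV 1 lower of 4, and the other genes 10 lower and 2 higher of 21. The median log2 fold change was −0.34, 0 and −0.61 in these classes and −0.01 over all genes.

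Col3a1, the fibrillar chain of loose connective tissue, fell from 361, 369, 437, 359 and 335 CPM in the anterior pieces of controls 1 to 5 to 181, 74.9, 181, 148 and 113 CPM in their posterior pieces. The lowest anterior library lay well above the highest posterior library. Its log2 fold change was −1.41 (SE 0.200, adjusted p = 0.000204). Col1a2 fell as well (−0.85, SE 0.113, adjusted p = 0.00012), as did Col11a1 (−0.63, SE 0.119, adjusted p = 0.00179), Col5a1 (−0.38, SE 0.103, adjusted p = 0.0153) and Col5a3 (−1.80, SE 0.424, adjusted p = 0.00726). Col1a1 did not pass, with 43.2 to 136 CPM anterior and 44.0 to 90.0 posterior (−0.21, 95% interval −0.86 to 0.45). The interval of Col2a1 was −0.34 to 0.09.

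The 250 bases before the RefSeq start of Col3a1 (GRCm38, plus strand, chr1:45311288-45311537) are shown because the gene had a large region difference and is 1 of the members whose window holds the MEIS core. That match, in capitals as its reverse complement CTGTCA, begins 153 bases before the start.
Col3a1: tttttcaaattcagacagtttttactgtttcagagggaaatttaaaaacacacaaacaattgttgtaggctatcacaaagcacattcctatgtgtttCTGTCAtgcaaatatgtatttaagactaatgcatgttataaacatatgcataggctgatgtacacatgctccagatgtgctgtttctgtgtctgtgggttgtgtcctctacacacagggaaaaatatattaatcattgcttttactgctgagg
Over both strands TGACAG occurred in 5 of 38 collagen windows (13.2%, against 15.9% of 32851 windows), in Col3a1, Col4a6, Col6a6, Col7a1 and Col19a1. The CCAAT box occurred in 34.2% of collagen windows and 33.8% of all, TATAAA in 13.2% and 12.4%, and the GC box GGGCGG in 57.9% and 32.7%. The windows came from RefSeq for 35 members, and a match describes letters, not binding.

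The type VI genes were among those with large regional differences. Col6a1 fell from 8.43, 7.97, 10.7, 7.69 and 9 CPM to 2.71, 2.70, 2.52, 3.03 and 3.53 CPM (−1.60, SE 0.137, adjusted p = 3.47e-06). All posterior libraries were at less than 4 CPM and all anterior libraries above 7. Col6a2 fell by 1.32 on the log2 scale (SE 0.191, adjusted p = 0.000238), and Col6a3 had −1.31 with a wide error (SE 0.525, adjusted p = 0.0908). The network-forming Col8a2 fell from 4.87, 4.02, 5.91, 4.36 and 4.27 CPM to 2.29, 0.858, 1.56, 1.56 and 0.589 CPM (−1.72, SE 0.292, adjusted p = 0.000826). Col16a1 fell from 5.83, 4.92, 7.07, 5.34 and 3.75 CPM to the posterior values given above (−1.42, SE 0.192, adjusted p = 0.000138). Neither gene had overlapping groups.

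Among fibril-associated chains, Col9a1 fell from 37.5 to 44.4 CPM in anterior to 11.6 to 23.5 CPM in posterior controls (−1.12, SE 0.147, adjusted p = 0.00011), and Col12a1 fell by 0.84 (SE 0.201, adjusted p = 0.00839). Col26a1 fell by 0.61 (SE 0.0988, adjusted p = 0.000548) and Col15a1 by 0.82 (SE 0.198, adjusted p = 0.00877).

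The genes higher in the posterior piece were both transmembrane collagens. Col13a1, a chain of cell-matrix adhesions, rose from 4.24, 4.61, 8.78, 7.23 and 6.08 CPM to 13.3, 12.5, 13.8, 13.3 and 12.6 CPM (1.09, SE 0.172, adjusted p = 0.00047). The posterior libraries were close together and all above the anterior ones. Col17a1, a hemidesmosome component of epithelia, rose from 0 to 0.647 CPM to 1.06 to 2.53 CPM (2.44, SE 0.489, adjusted p = 0.00259), with anterior values near the floor. The other transmembrane genes tested, Col23a1 (−0.42, SE 0.117, adjusted p = 0.0187) and Col25a1 (−0.65, SE 0.188, adjusted p = 0.0224), fell. The 250 bases before the start of Col13a1 (GRCm38, minus strand, chr10:61979109-61979358) are shown as those of the more abundant posterior gene. They hold neither TGACAG nor CCAAT on either strand.
Col13a1: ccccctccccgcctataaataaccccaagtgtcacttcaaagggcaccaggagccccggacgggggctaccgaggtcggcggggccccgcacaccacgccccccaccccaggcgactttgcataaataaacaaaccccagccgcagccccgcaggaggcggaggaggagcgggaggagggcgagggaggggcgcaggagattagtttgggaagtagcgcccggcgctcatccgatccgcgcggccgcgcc

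With the embryo as a block, Col6a3 and Col22a1 also passed and none of the 19 was lost, while the share called over all genes was 33.6%. Without control 1, the calls of Col5a1, Col11a2, Col12a1 and Col25a1 were lost, without control 3 or 4 those of Col11a2 and Col25a1, and without control 5 those of Col11a2 and Col23a1, while Col6a3 was called without control 2.

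Between the regions of control embryos Col4a1, Col4a2 and Col18a1 gave narrow intervals around 0. The log2 fold change was 0.01 for Col4a1 (95% interval −0.14 to 0.17), −0.01 for Col4a2 (−0.21 to 0.19) and 0.02 for Col18a1 (−0.14 to 0.18). In DKO embryos it was −0.21 for Col4a1 (−0.46 to 0.05), −0.28 for Col4a2 (−0.55 to −0.01, adjusted p = 0.151) and 0.06 for Col18a1 (−0.15 to 0.27). Of the 4 type IV genes tested, Col4a5 alone passed, falling from 43.3 to 49.1 CPM to 29.5 to 39.4 CPM (−0.35, SE 0.0764, adjusted p = 0.00442).

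In the DKO embryos the same regional comparison called 10 of 34 collagen genes (29.4%, against 18.5% of 15777 genes), 8 lower (23.5%, against 9.70%) and 2 higher (8.76% of all genes were). All 10 were among the 19 called in controls, which use other libraries. They were Col5a3, Col6a2, Col8a2, Col9a1, Col12a1, Col16a1, Col23a1 and Col26a1 (lower) and Col13a1 and Col17a1 (higher). Col9a1 differed by −1.10 (SE 0.171, adjusted p = 0.00132) and Col13a1 by 1.06 (SE 0.138, adjusted p = 0.000436). Genes called in controls and not in DKO embryos were not shown to differ between the genotypes by the interaction test. Col3a1 had −0.95 (SE 0.341, adjusted p = 0.0860) and Col6a1 −0.73 (SE 0.287, adjusted p = 0.116). Col1a1 had 2.11 (SE 0.677, adjusted p = 0.0568), which was 0.74 without DKO 1. Col1a1 passed with DESeq2 (adjusted p = 0.0361) and with no filter on low counts (adjusted p = 0.0147), the adjusted p ranging up to 0.223 over 10 alternatives. With the embryo as a block Col3a1 and Col4a5 were called too, and 19% of all genes. Calls were lost for Col5a3 and Col23a1 without DKO 1, for Col5a3, Col6a2, Col8a2 and Col16a1 without DKO 2, for Col16a1 and Col23a1 without DKO 3, and for Col5a3, Col16a1 and Col23a1 without DKO 4. Col6a1 was gained without DKO 1, and Col4a1, Col4a2 and Col22a1 without DKO 2.

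**Figure D4:**
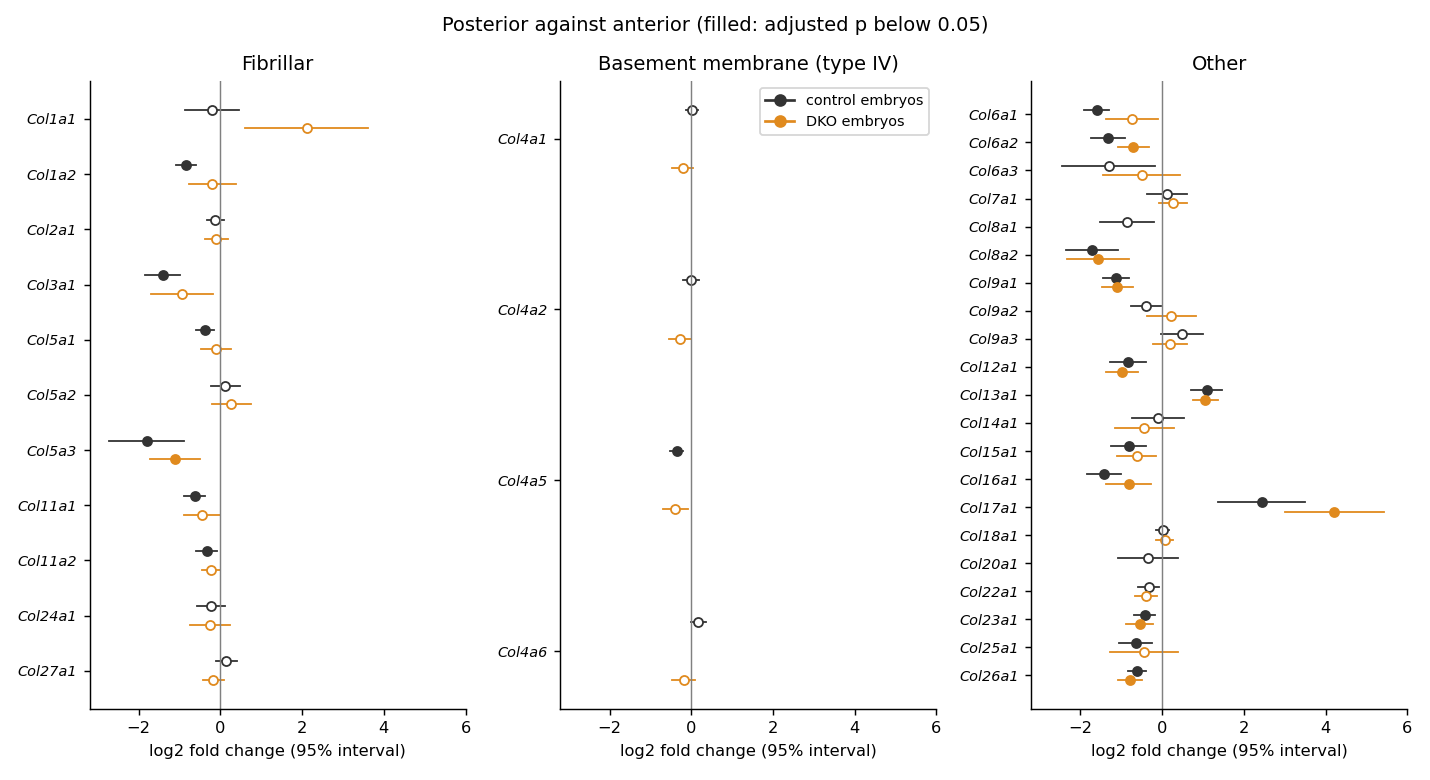
Log2 fold change of posterior against anterior with its 95% interval for each tested collagen gene, in control (dark) and DKO (orange) embryos, by class, with filled points for an adjusted p below 0.05. Most fibrillar and other genes lie left of 0, Col13a1 (1.09 in controls) and Col17a1 (2.44) lie right, and the control points of Col4a1, Col4a2 and Col18a1 lie near 0 (DKO values −0.21, −0.28 and 0.06).

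Within single embryos, 15 of the 36 genes were lower in the posterior than in the anterior library of all 9 embryos (41.7%, against 13% of 16551 genes tested). They were Col3a1, Col4a5, Col5a3, Col6a2, Col6a3, Col8a2, Col9a1, Col11a1, Col11a2, Col12a1, Col15a1, Col16a1, Col22a1, Col23a1 and Col26a1. In all 9, 3 were higher (8.33%, against 11.1% of all genes), namely Col13a1, Col17a1 and Col9a3. Col1a2 and Col6a1 were lower in 8 of 9, the exception being DKO 1 in both. Col1a1 was higher in the posterior library of 7 embryos and lower in 2.

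**Figure D5:**
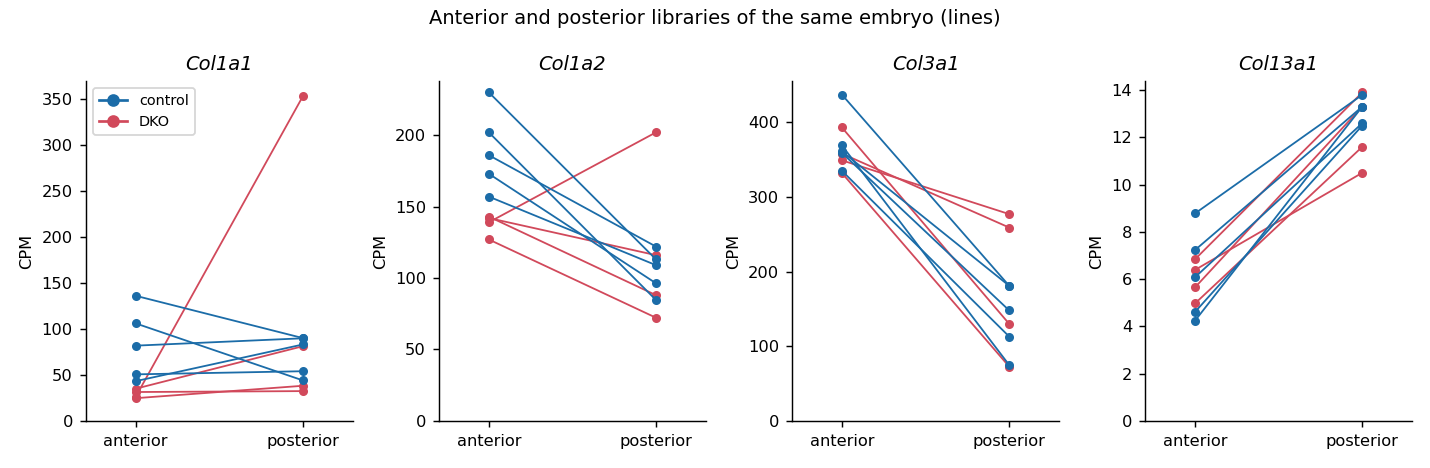
Level in CPM of 4 collagen genes in the anterior and posterior library of each embryo, joined by lines, for control (blue) and DKO (red) embryos. Col3a1 falls and Col13a1 rises in all 9 embryos, and DKO 1 is the line that climbs to 353 CPM for Col1a1 and to 202 CPM for Col1a2.

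The pieces differ in tissue makeup. From anterior to posterior controls, the summed markers went from 102 to 119 CPM to 49.1 to 71.8 for dermomyotome and myotome, from 388 to 501 to 218 to 296 for neural tube, and from 158 to 188 to 110 to 146 for neural crest. They went from 74.5 to 161 to 181 to 252 CPM for surface ectoderm, from 32.9 to 49.8 to 74.4 to 112 for gut endoderm, and from 47.4 to 56.9 to 126 to 185 for the notochord list. That last sum was carried by T, also a gene of the axial bud (means of 4.14 and 95.4 CPM), while Shh (29.5 and 25 CPM) and Foxa2 (10.7 and 8.42 CPM) had lower posterior means. Within the neural crest list 3 markers had lower values, 2 of them past the threshold, and 2 had higher values. Sox10 had means of 34.9 and 11.5 CPM and Ets1 of 95.7 and 82.6, whereas Foxd3 had 7.36 and 9.52. The summed ranges of the other 5 lists overlapped, although single members of 4 of them passed the threshold. Of the 6 lateral plate and coelomic mesoderm markers 3 rose and 0 fell (median 1.42). Foxf1 had means of 8.44 and 20.7 CPM, whereas Prrx1, with the highest anterior mean of that list, had 57.3 and 50.3 CPM. Of the 8 sclerotome markers 4 rose and 3 fell (sums of 334 to 405 and 399 to 504 CPM), of the 6 endothelium markers 0 rose and 2 fell, and of the 4 heart markers tested 1 rose and 1 fell. The 6 primitive erythroid markers all had lower values (median −0.68), with none past the threshold (edgeR) and 1 at an unadjusted p below 0.05. Between the regions of DKO embryos all 6 neural tube markers (median −0.73) and the 5 tested of dermomyotome and myotome (median −1.61) fell past the threshold. Of neural crest 3 of 5 fell (median −0.55), and of surface ectoderm 5 of 6 rose (median 1.04). The 6 primitive erythroid markers all had higher values there (median 0.54), 4 at an unadjusted p below 0.05 and none past the threshold. The part of these tissues in the regional collagen differences was not tested.

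Genes that build, bind or degrade collagen were read from 4 lists. In neither DKO comparison did a gene of these lists pass the threshold. In the anterior piece the smallest adjusted p was 0.0881 for Timp3, an inhibitor of matrix proteases (47.6 ± 1.5 CPM in controls, SD, n = 5, and 38.2 ± 3.66 in DKO, n = 4, log2 fold change −0.32, SE 0.063). It was 0.0995 for Nid1, which links laminin to type IV collagen (76.9 ± 7.55 and 60.9 ± 3.88 CPM, −0.33, SE 0.07). Pcolce, the enhancer of procollagen C-terminal cleavage, had 41.8 ± 5.89 and 29.8 ± 6.51 CPM (−0.49, SE 0.141, adjusted p = 0.192). The collagen chaperone Serpinh1 had 767 ± 77.5 and 880 ± 44.6 CPM (0.20, SE 0.0696, adjusted p = 0.269). Of the collagen receptors and binding partners, Ddr1, a receptor tyrosine kinase for collagen, had 115 ± 9.33 and 144 ± 14.8 CPM (0.33, SE 0.0757, adjusted p = 0.123), and the fibril-binding proteoglycan Fmod 3.17 ± 0.481 and 1.67 ± 0.514 CPM (−0.94, SE 0.228, adjusted p = 0.141). In the posterior piece the smallest adjusted p was 0.241, for the collagen-folding isomerase Ppib (0.32, SE 0.0758).

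The other anterior genes named by p were Mmp15, a membrane-bound matrix metalloproteinase (60.1 ± 1.26 and 73.3 ± 7.81 CPM, 0.29, SE 0.0646, adjusted p = 0.12), and the laminin chain Lamc3 (7.51 ± 1.46 and 10.7 ± 2.32 CPM, 0.52, SE 0.173, adjusted p = 0.249). In the posterior piece the higher values among genes so named were those of Lama1, a laminin chain (0.37, SE 0.108, adjusted p = 0.347), Ddr1 (0.28, SE 0.0834, adjusted p = 0.364), Timp1, a metalloproteinase inhibitor (0.40, SE 0.208, adjusted p = 0.48), and Lum (2.45, SE 0.828, adjusted p = 0.408), whose posterior DKO 1 library stood apart as given above. The lower values were those of Nid1 (−0.43, SE 0.171, adjusted p = 0.444), the prolyl hydroxylase gene P3h2 (−0.32, SE 0.0971, adjusted p = 0.367) and Reck, a membrane-anchored protease inhibitor (−0.28, SE 0.11, adjusted p = 0.444).

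Between the regions of control embryos genes of each list passed the threshold, in a comparison where 12.1% of all genes rose and 13.3% fell, and no test set the lists against other genes. Of 15 other basement membrane components, 8 rose (53.3%) and 2 fell (13.3%) in the posterior piece, with a median of 0.42, whereas the type IV genes had a median of 0. Those that rose included Lama5, Lamb1, Nid2, Hspg2 and Agrn, named after their values were seen, and the laminin chains Lamc3 (−4.67, SE 0.41, adjusted p = 4.13e-06) and Lama2 (−3.50, SE 0.3, adjusted p = 3.46e-06) fell. Of 32 processing genes tested, 6 rose (18.8%) and 3 fell (9.38%), shares near those of all genes. Tll2, a protease gene of the BMP1 and tolloid family, rose from 0.0699 ± 0.136 to 1.64 ± 0.454 CPM (adjusted p = 0.000125), and the prolyl hydroxylase subunit gene P4ha3 from 2.03 ± 0.472 to 7.03 ± 1.34 CPM (1.81, SE 0.187, adjusted p = 1.56e-05). The anterior mean of Tll2 lay below the floor of 3 counts, and the gene passed the filter through its posterior libraries. Of 15 receptors and binding partners, 4 rose and 4 fell (26.7% each). Lum fell from 22.3 ± 3.63 to 2.05 ± 0.68 CPM (−3.43, SE 0.198, adjusted p = 1.75e-07), and Ddr2, the receptor for fibrillar collagens, from 29.6 ± 9.10 to 5.09 ± 2.6 CPM (−2.54, SE 0.37, adjusted p = 0.000252). Of 10 proteases and inhibitors, 5 rose (50%) and 3 fell (30%), among them Mmp9 (1.36, SE 0.317, adjusted p = 0.00697) and Ctsk (−1.26, SE 0.319, adjusted p = 0.0113).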

How the data were processed

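Poly(A) RNA of 18 dissected pieces from 9 embryos was read single-end at 61 bp, per the labels' protocols. The authors deposited RSEM expected counts per Ensembl gene (release 91), not scaled between libraries. The submitters' processing notes also name CASAVA, cutadapt and GRCm38. The aligner and strand setting are not given in the sources used here. Symbols, biotypes and exon lengths came from GENCODE M21 of the same build, which held 53360 of 53465 identifiers.

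Counts were rounded and tested in R 4.3.3 with edgeR 4.0.16 (filterByExpr with a minimum count of 10 and a minimum total of 15, TMM scaling, glmQLFit, glmQLFTest), with Benjamini-Hochberg adjustment over all genes tested and a threshold of 0.05. Only the groups compared entered each fit, except the interaction (18 libraries). The SE is the log2 fold change divided by the root of F. The code was tested on simulated data.

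Members and lists were chosen with earlier results of these data known. Genes given by library were the 6 with the smallest p per DKO comparison and the largest regional changes (at most 4 per direction), all averaging 50 counts or more, and the highest gene per class. List genes named were, per list, the 2 with the smallest p per DKO comparison or the largest regional change. Other genes of these lists are marked as named after their values were seen.

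Anterior and posterior libraries were matched to embryos by labelled genotype, sex and somite number, a combination unique to each embryo. The sex label of control 1 goes against its transcripts, and without it the labels alone would not tell controls 1 and 5, of equal somite number, apart. After removal of group means, same-embryo correlations over genes were 0.256 to 0.571 (9 pairs), and those of different embryos −0.284 to 0.0923 (32 pairs of the same genotype, controls 1 and 5 among them). Alternatives were other size factors, DESeq2 1.42.0, other filters, a somite covariate, 1 fit of all libraries, the embryo block, and each embryo left out.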

Additional observations from a re-analysis of the deposited data

Results flagged for a closer look

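In 6 of 76 groups of 4 or 5 libraries examined, 1 library stood apart from the rest by Dixon's criterion at 95%, which chance alone gives in about 1 of 20 groups. Col1a1 was at 353 CPM in posterior DKO 1, against 32.4 to 81.2 in the other posterior DKO libraries. Col14a1 was at 4.85 CPM in posterior DKO 2, against 2.42 to 2.76. Col7a1, the anchoring fibril collagen, was at 6.14 CPM in posterior DKO 4, against 4.53 to 4.77. Col25a1 was at 5.40 CPM in anterior DKO 2, against 1.86 to 1.89 in the other anterior DKO libraries and 3.25 to 5.75 in the anterior controls. Posterior control 2 stood apart for Col11a2, at 8.11 CPM against 6.19 to 6.61, and for Col26a1, at 63.1 CPM against 87.0 to 95.2.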

How the results depend on the processing

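The count of collagen genes past the threshold for DKO against control in the anterior piece was 0 with edgeR, 6 with DESeq2, 3 with no filter on low counts and 1 with somite number as a covariate, while the share called over all genes was 0.0394%, 1.94%, 0.274% and 0.551%. It ranged from 0 to 2 when 1 embryo was left out, the 2 arising without DKO 2, and was 0 under RLE or upper-quartile factors, a mean of at least 50 counts and 1 fit of all 18 libraries. The adjusted p of Col9a1 ranged from 6.84e-05 (DESeq2) to 0.452 (1 fit of all libraries) over 16 alternatives, and its log2 fold change from −0.46 to −0.38. That of Col1a1 ranged from 0.00307 to 0.397 and that of Col1a2 from 0.000437 to 0.521 under the same settings. The cause of these shifts was not tested. In the posterior piece and the interaction the count was 0 under each alternative run, and the posterior log2 fold change of Col1a1 reversed to −0.51 without DKO 1 (range −0.51 to 1.11 with 1 embryo left out). The regional counts ranged from 15 to 20 (controls) and from 7 to 9 (DKO) with 1 embryo left out, while 19% to 22.2% and 11.1% to 16.2% of all genes were called. With the embryo as a replicate block they were 21 and 12 (over all genes 33.6% and 19%, from 25.4% and 18.5%), and the interaction count 0, so the pairing added Col6a3 and Col22a1 in controls and Col3a1 and Col4a5 in DKO embryos and changed no other call among the collagens. All 5 genes named for their regional change in controls kept their call and direction under 11 alternatives. Genes near the floor of 3 counts, such as Col17a1 in the anterior piece, were limited by depth.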

Other observations

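The 20-somite embryos, the youngest of each genotype (control 2 and DKO 3), had the lowest posterior levels for several collagens. Both of their posterior libraries lay below all 7 others for 6 of 30 collagen genes with a mean of at least 50 counts (20.0%, against 3.54% of 12558 genes). These were Col1a2, Col2a1, Col3a1, Col9a1, Col15a1 and Col26a1. For Col3a1 they had 74.9 and 72.8 CPM, and for Col9a1 11.6 and 10.6 CPM. They were highest for 0 collagen genes (against 3.15% of all genes). In the anterior piece they were lowest for 0 of 31 (against 5.77% of all genes) and highest for 2, Col4a1 and Col18a1 (6.45%, against 5.85%). This count was chosen after the values were seen, there is 1 such embryo per genotype, and stage was not tested.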
